A study of Arabidopsis thaliana with 6 samples.

Results

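The gibberellin receptors of Arabidopsis thaliana are encoded by 3 genes, GID1A, GID1B and GID1C, and their transcripts were examined in seedlings with very little mRNA of the transcription factor PIF1 and in wild-type seedlings. The members were the probe sets that the platform annotation assigns to one of these symbols and to no other gene. Each receptor had 1 such probe set, so that 3 genes were found among the 13350 genes named by a single-gene probe set on the ATH1 array. The selection rule reads only gene symbols, but the receptors were picked as a subject with earlier results of these data known. The groups were pif1-2, an insertion mutant of PIF1 carried as a single line, and wild type (Col-0), with 3 arrays each of whole seedlings. Both groups were kept in the cold for 4 days as seeds, exposed to light for 1 hour and then grown at 21 °C in darkness for 4 days. The labels describe the mutant as having very little PIF1 mRNA and as about 2 mm shorter than wild type when etiolated. Samples were grouped and numbered by title, since a second label field prints a different allele number for every sample.

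Gibberellin promotes germination and the elongation of the hypocotyl in darkness. A GID1 protein that holds gibberellin closes a lid over the hormone and then binds a DELLA protein, a nuclear repressor of growth. The F-box proteins SLY1 and SLY2 mark the captured DELLA protein for destruction. GID1A and GID1C are the more closely related receptors, and GID1B lies on a branch of its own. The GID1 proteins resemble plant carboxylesterases and are thought to descend from them. DELLA proteins bind PIF proteins and keep them from DNA, and PIF1 is known to activate DELLA genes in imbibed seeds. The comparison asks whether transcripts of the receptors, which stand upstream of the DELLA proteins, depend on PIF1 in etiolated seedlings.

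Values are MAS5 signals, a linear intensity computed for each probe set array by array, rescaled so that every array had a 2% trimmed mean of 500. Deposited array medians lay between 184 and 199. The arrays of pif1-2 replicates 3 and 2 each stood apart on 1 principal component. Replicate 3 scored 47.9 on the first (26.9% of variance), with all others between -13.2 and -5.23. Replicate 2 scored 42.6 on the third (22.5%), with all others between -17.8 and -1.97. Replicate 3 also had an actin 3-prime to 5-prime ratio of 8.07, with all others between 3.53 and 5.17. Its GAPDH ratio of 1.32 lay within the range of the others, 1.20 to 1.34. Receptor values are therefore also given without either array. PIF1 had no named probe set, nor had the locus printed in the series title, so the genotype was not checked by a named target probe set. Of 4 marker genes listed for dark-grown seedlings 2 were named: PORB, a protochlorophyllide oxidoreductase, at 4898 to 9171 in pif1-2 and 8379 to 10714 in wild type, and ICL, an isocitrate lyase used in growth on seed oil, at 11186 to 12502 in pif1-2 and 6683 to 12603 in wild type. These 2 markers went opposite ways. PORB had a log2 fold change of -0.48 (limma unadjusted p = 0.0330) and ICL of 0.42 (limma unadjusted p = 0.0531). Of all probe sets tested, 7.67% had an unadjusted p under 0.05. The root-hair expansins EXPA7 and EXPA18, both markers listed for root hairs, had signals of 91.1 to 199 and 149 to 277 in pif1-2, against 51.7 to 205 and 174 to 249 in wild type. OLEO3, an oil-body oleosin and 1 of 5 dry-seed markers listed, averaged 919.7 ± 103 in pif1-2 and 1624 ± 141 in wild type (SD, n = 3 each; unadjusted p = 0.000111, adjusted p = 0.152 by limma). Every pif1-2 array lay below every wild-type array for OLEO3, and the groups did not overlap for 13.1% of all probe sets in either direction. None of the 5 tested markers passed the threshold, and their part in the receptor values was not tested. None of 4 markers of light-grown leaves had a named probe set, and these were not analysed here. In bulk seedlings fewer cells of a type and less RNA per cell cannot be told apart.

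None of the receptors passed the threshold between pif1-2 and wild type. GID1A and GID1B had fold changes close to 1, and GID1C was 1.15 times its wild-type level on the log2(signal + 16) scale, within the spread of the arrays. By limma with Benjamini-Hochberg adjustment 0 of 3 receptors passed 0.05 and 0 had an unadjusted p under 0.05. Of all 17695 probe sets tested, 0.0113% passed the adjusted threshold and 7.67% had an unadjusted p under 0.05. The groups overlapped for all 3 receptors, as they did for most probe sets, with no overlap in 13.1% of all tested. The median log2 fold change of the receptors was 0.029, beside 0.00095 over all probe sets, and the median absolute log2 fold change of all probe sets was 0.16.

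GID1A (AT3G05120, probe set 259302_at) had signals of 955, 738 and 993 on the arrays of pif1-2 replicates 1, 2 and 3, against 875, 747 and 1075 on those of wild type replicates 1, 2 and 3. Its lowest value in each group was on the replicate 2 array and its highest on the replicate 3 array, and the groups overlapped almost completely. The means were 895 ± 138 in pif1-2 and 899 ± 165 in wild type (SD, n = 3 each). On the log2 scale pif1-2 over wild type was -0.0023 (SE 0.17), with a limma adjusted p of 0.999. The 95% confidence interval of this log2 value ran from -0.38 to 0.38. Without pif1-2 replicate 3 the log2 fold change of GID1A was -0.082, and without pif1-2 replicate 2 it was 0.13.

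GID1B (AT3G63010, 251200_at), known in biochemical work as the receptor with the highest affinity for gibberellin, had signals of 315, 295 and 222 in pif1-2, against 282, 305 and 224 in wild type, in the same order of replicates. The replicate 3 array was the lowest of its group in both genotypes. GID1B averaged 277 ± 49.0 in pif1-2 and 270.3 ± 41.8 in wild type (SD, n = 3 each), so that the difference between means was smaller than either SD. The log2 fold change was 0.029 (SE 0.19, limma adjusted p = 0.983), with a confidence interval from -0.38 to 0.44. It was 0.17 without pif1-2 replicate 3 and -0.020 without pif1-2 replicate 2.

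GID1C (AT5G27320, 246782_at) had signals of 416, 446 and 295 in pif1-2, against 313, 387 and 295 in wild type. The pif1-2 replicate 3 array lay at the level of the lowest wild-type array, and the other pif1-2 arrays lay above all 3 wild-type arrays. GID1C averaged 386 ± 80.0 in pif1-2 and 331 ± 48.5 in wild type (SD, n = 3 each). The log2 fold change was 0.20 (SE 0.19, limma adjusted p = 0.849), and 41.4% of all probe sets had a larger absolute change. The confidence interval of the log2 value ran from -0.21 to 0.61. Without pif1-2 replicate 3 the log2 fold change of GID1C was 0.37 (SE 0.17, unadjusted p = 0.0557 and adjusted p = 0.698 by limma). That was the highest value among the 16 alternative settings run for it. The lowest was 0.086, without pif1-2 replicate 2.

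**Figure D1:**
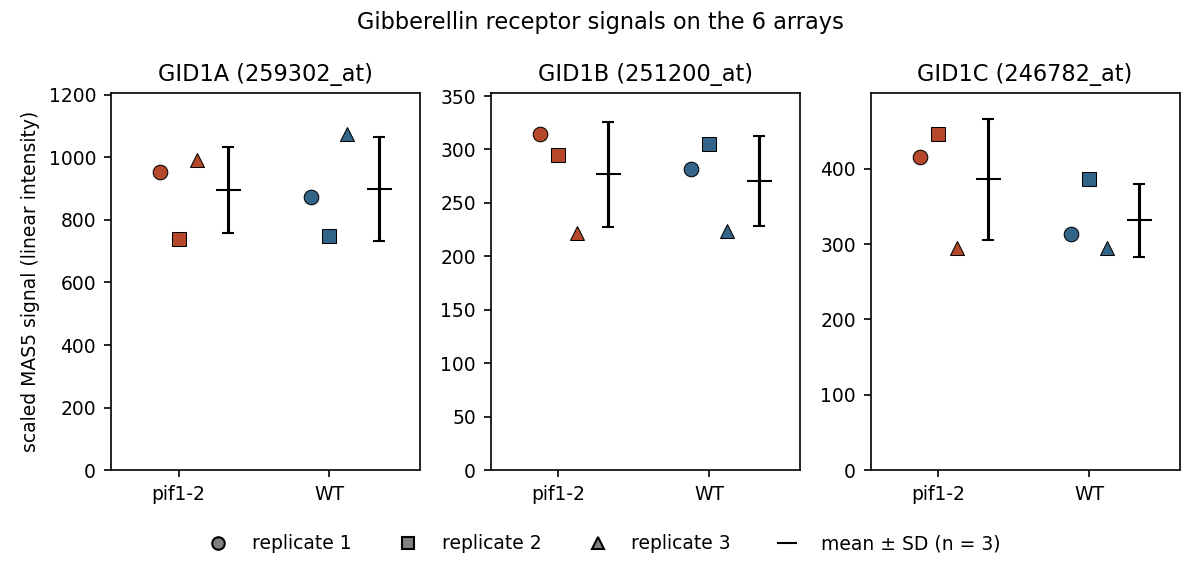
Scaled MAS5 signal (linear intensity) of each receptor on the 6 arrays, with pif1-2 left of WT, 1 symbol per array, and the mean ± SD of 3 arrays beside each group. The groups overlap in every panel, and the replicate 3 arrays (triangles) are the highest for GID1A and the lowest for GID1B and GID1C in both genotypes.

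GID1A gave the highest signal of the receptors on all 6 arrays, GID1C the next and GID1B the lowest. Within every array GID1C exceeded GID1B, by 0.15 to 0.57 on the log2 scale. Probe sets bind labelled RNA with unequal efficiency, and this order of signals is therefore not an order of transcript amounts. What can be compared between probe sets is whether 2 receptors changed unequally, for which the difference of their log2(signal + 16) values was taken on each array. Exact two-sided permutation tests were used for the 3 pairs of receptors, with Benjamini-Hochberg adjustment over the pairs. With 3 arrays against 3 such a test cannot give a p below 0.1.

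The difference GID1C minus GID1B was 0.39, 0.57 and 0.39 on the pif1-2 arrays, against 0.15, 0.32 and 0.37 on the wild-type arrays. All 3 pif1-2 arrays lay above all 3 wild-type arrays, although the nearest arrays of the groups lay close together, at 0.39 and 0.37. For single probe sets the groups did not overlap in 13.1% of all tested, and the share for differences between 2 probe sets was not computed. The mean was 0.45 ± 0.11 in pif1-2 and 0.28 ± 0.12 in wild type (SD, n = 3 each), which differ by 0.17 (exact permutation p = 0.1, the smallest the design allows, and 0.3 after adjustment). No pair could have passed 0.05 in this design, so that these tests do not decide whether the receptors changed unequally. With quantile normalization the exact permutation p of this pair was 0.3.

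The other pairs were dominated by differences between arrays of the same group, in part shared by arrays of the same replicate number. GID1C minus GID1A was -1.17, -0.70 and -1.70 in pif1-2, against -1.44, -0.92 and -1.81 in wild type. Its range over the arrays was 1.11, while the group means differed by 0.20 (exact permutation p = 0.7, adjusted 0.9). GID1B minus GID1A was -1.55, -1.28 and -2.09 in pif1-2, against -1.58, -1.25 and -2.18 in wild type. In that pair the group means differed by 0.031 (exact permutation p = 0.9, adjusted 0.9), and in both pairs the replicate 3 array was the lowest of its group.

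**Figure D2:**
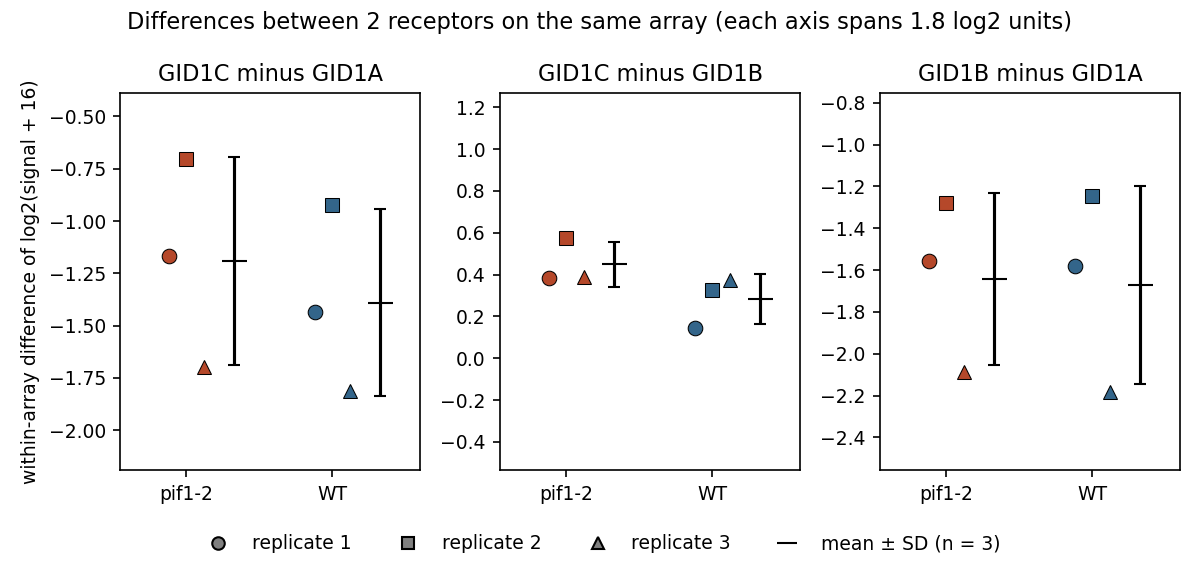
Difference of log2(signal + 16) between 2 receptors on the same array, for 3 pairs, with pif1-2 left of WT, 1 symbol per array, and the mean ± SD of 3 arrays; each vertical axis spans the same number of log2 units. GID1C minus GID1B varies least between arrays, and it is the pair in which every pif1-2 array lies above every WT array. How often this occurs for differences between any 2 probe sets was not computed.

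The receptors did not share 1 pattern over the arrays. After each gene was centred on its own mean over the 6 arrays, the root mean square difference between GID1C and GID1B was 0.13 on the log2 scale. Only 2.16% of the named probe sets tested were closer to GID1B than GID1C was. The values were 0.40 for GID1C and GID1A, and 0.36 for GID1B and GID1A. The median over the 9978 other candidate probe sets was 0.31 from GID1A, so that GID1A was farther from the other receptors than from the typical named probe set. These distances describe the same 6 arrays and carry no test.

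The genes with the most similar patterns were taken as the 3 of smallest distance for each receptor. For GID1A they were AT1G06500, AT5G53650 and AT3G44740, at distances of 0.044, 0.062 and 0.067. AT5G53650 had 755, 633 and 837 in pif1-2, against 713, 658 and 837 in wild type, so that in each group replicate 2 was low and replicate 3 high, as for GID1A. For GID1B they were AT1G19980, AT5G06570 and AT5G28580, a pseudogene in the gene table, at 0.033, 0.035 and 0.048. AT5G06570 had 550.1, 486 and 380.3 in pif1-2, against 499, 513 and 397 in wild type, with both replicate 3 arrays lowest. For GID1C they were AT1G02960, AT3G30280 and YLS5, at 0.061, 0.061 and 0.062. AT1G02960 had 437, 452 and 320.0 in pif1-2, against 359, 395 and 327 in wild type.

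The rest of the gibberellin pathway was covered by a list of 41 other genes, of which 5 had a named probe set. All 5 were tested, 0 passed the threshold and 0 had an unadjusted p under 0.05 with limma. Their median log2 fold change was 0.17, with 4 positive and 1 negative, beside a median of 0.00095 over all probe sets, of which 8871 were positive and 8824 negative. The median of the 5 genes depended on single arrays: it was 0.011 without pif1-2 replicate 1, 0.066 without pif1-2 replicate 2, 0.31 without pif1-2 replicate 3 and 0.11 without wild type replicate 1. The genes of gibberellin synthesis (14), of its inactivation (9) and the DELLA repressors (5) had 0 named probe sets and were not analysed here.

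Downstream of the receptors stand the F-box genes. SLY1, which recruits DELLA proteins for ubiquitination, had signals of 669, 508 and 702 in pif1-2, against 669, 709 and 751 in wild type. Its log2 fold change was -0.19 (SE 0.16, limma adjusted p = 0.833), and the pif1-2 replicate 2 array was the lowest. SLY1 was at -0.048 when that array was left out. SLY2, also called SNEEZY, a related F-box protein that can replace SLY1 when overexpressed, had 148, 111 and 130.1 in pif1-2, against 77.4, 98.7 and 122 in wild type. SLY2 lay farthest from 0 among the 5 pathway genes, at a log2 fold change of 0.35 (SE 0.25), with overlapping groups and a limma adjusted p of 0.800, and was at 0.20 without wild type replicate 1.

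SPY and SEC encode related enzymes that attach O-linked sugars to DELLA proteins, fucose by SPY and N-acetylglucosamine by SEC. SPY had 528, 664 and 437 in pif1-2, against 437, 442 and 554 in wild type, a log2 fold change of 0.17 (SE 0.18) that was 0.015 after dropping pif1-2 replicate 2 and 0.31 after dropping pif1-2 replicate 3. SEC had 1035, 719 and 651 in pif1-2, against 755, 655 and 632 in wild type, a log2 fold change of 0.21 (SE 0.18). In both the groups overlapped, and the SEC value of pif1-2 replicate 1 lay above the other arrays. Without that array the log2 fold change of SEC was 0.011, and without pif1-2 replicate 3 it was 0.34. XERICO, a RING-finger gene that DELLA proteins are known to induce, was measured at 2531 ± 210 in pif1-2 and 2472 ± 191 in wild type (SD, n = 3 each), a log2 fold change of 0.033 (SE 0.13). SPY, SEC and XERICO had adjusted p-values between 0.843 and 0.973 in the limma fit.

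Of the carboxylesterases, the enzyme family that the receptors resemble, only genes with a CXE symbol or synonym in the gene table were listed. Of these 7 genes 3 had a named probe set, and all 3 were tested. Family members without such a name were not covered. None passed the threshold. CXE18 had 201, 127 and 224 in pif1-2, against 237, 264 and 288 in wild type, and every pif1-2 array lay below every wild-type array, as with 13.1% of all probe sets in either direction. Its log2 fold change was -0.51 (SE 0.21, limma unadjusted p = 0.0355, adjusted p = 0.637). It was at -0.28 (limma unadjusted p = 0.159) without pif1-2 replicate 2, and the unadjusted p also exceeded 0.05 without wild type replicate 2 (0.0761) or 3 (0.105), with no filter (0.0607) and without the intensity trend (0.0510). CXE16 was at -0.17 (SE 0.17), and ranged from -0.29 without wild type replicate 2 to -0.082 without pif1-2 replicate 3. CXE20 had signals of 69.3 and 78.6 on the arrays of pif1-2 replicates 1 and 2 and 311 on that of pif1-2 replicate 3, against 77.3 to 149 in wild type. Its log2 fold change of 0.27 became -0.35 without that array.

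**Figure D3:**
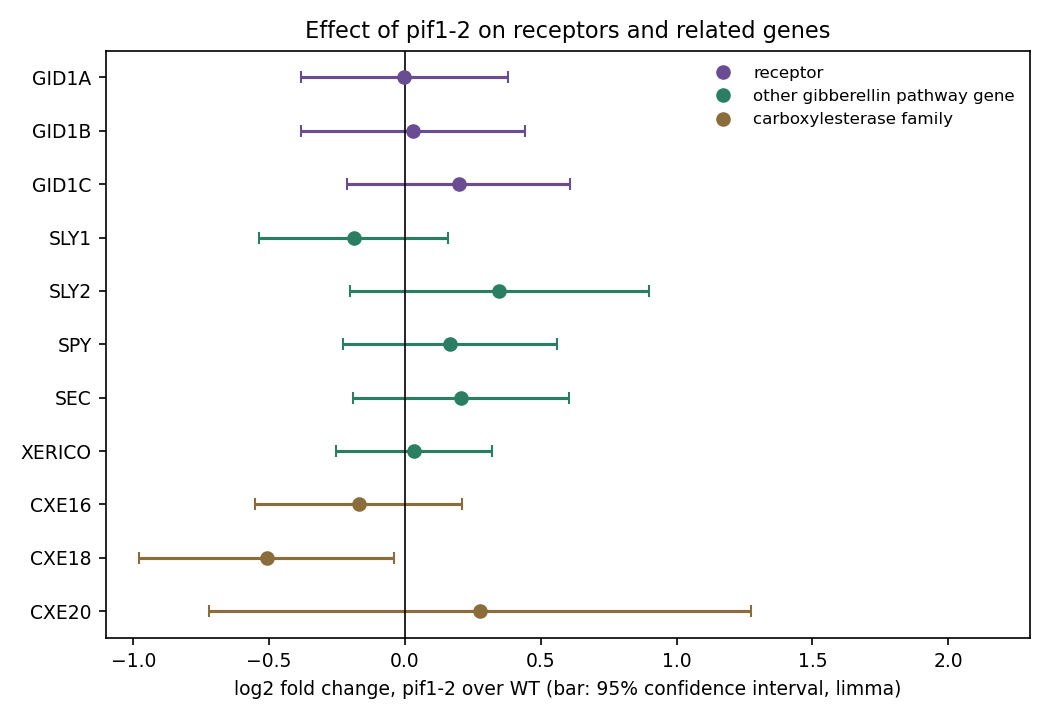
Log2 fold change, pif1-2 over WT, of the 3 receptors, 5 other gibberellin pathway genes and 3 carboxylesterase family genes; bars are 95% confidence intervals from limma, not adjusted for multiple tests. All intervals but that of CXE18 include 0.

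Across the alternative settings the receptors remained below the threshold, and the unadjusted p was under 0.05 in 0 of 16 settings for each of them. The log2 fold change ranged from -0.13 to 0.13 for GID1A, from -0.093 to 0.17 for GID1B and from 0.086 to 0.37 for GID1C. GID1C was thus positive in every setting, although the filters, the variance model and the replicate block cannot change these estimates. GID1A and GID1B took both signs depending on the array left out, GID1A also turning positive with median centring and with array weights.

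**Figure D4:**
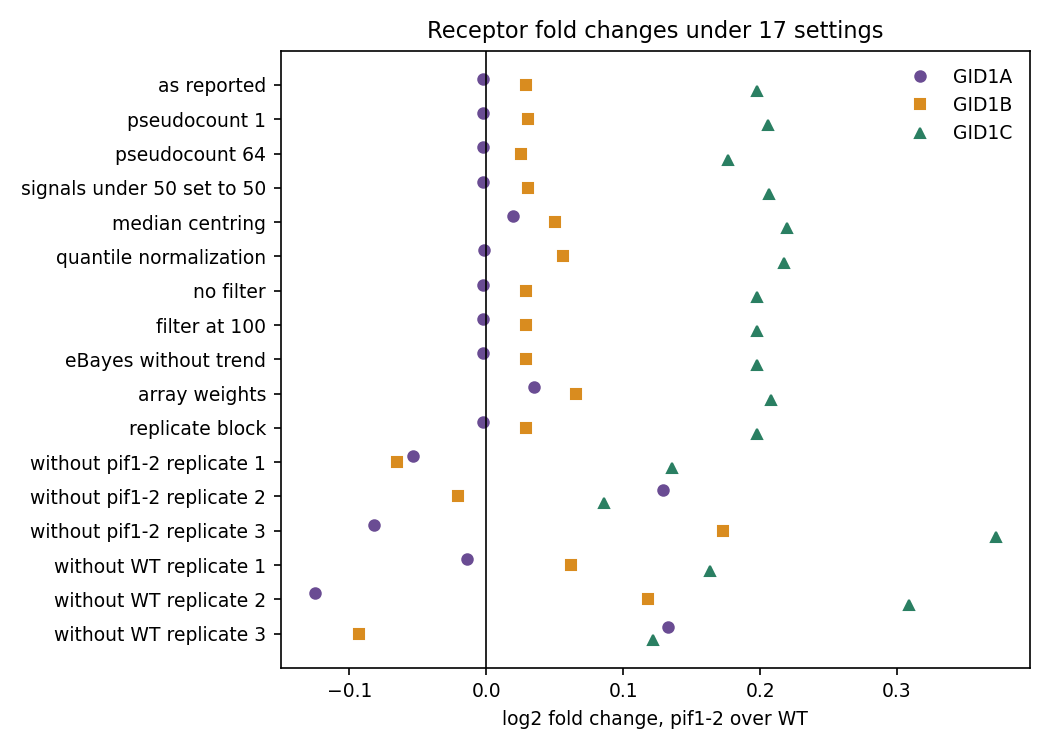
Log2 fold change, pif1-2 over WT, of GID1A (circles), GID1B (squares) and GID1C (triangles) as reported and under 16 alternative settings, 1 per row. GID1C stays right of 0 in all rows, at 0.086 to 0.37, and GID1A and GID1B lie on both sides of 0.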

How the data were processed

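The authors deposited 1 linear intensity for each probe set and array. MAS5 is named as the tool, without a version, per the submitters' processing notes. Its settings, and a genome build, were not given in the sources used here. All arrays came already scaled, with a 2% trimmed mean of 500. The table held 22810 probe sets. After 64 Affymetrix controls were set aside, every array was brought to that trimmed mean again, the 5051 features whose mean signal was under 50 were left out, and log2(signal + 16) of the other 17695 was fitted with limma 3.58.1 in R 4.3.3 (eBayes with intensity trend, two-sided, Benjamini-Hochberg over all probe sets, threshold 0.05). Fold changes understate those of dim probe sets. All 3 receptors passed the filter. The number of arrays limits the precision.

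Names came from the platform annotation, with 1 gene for 13513 probe sets, several for 503, and 8730 not listed. Of the named, 13436 matched the RefSeq gene table of TAIR10.1. The annotation named each receptor with 1 probe set, so that no choice by brightness was needed. Members and lists were chosen with earlier results of these data known. The text names the receptors, every tested member of the pathway and carboxylesterase lists, 3 genes of like pattern per receptor, and the 5 markers with a named probe set. Sequences of the receptors are not printed here. The labels call the replicates biological without saying whether seedlings were grown separately, so p-values measure only how these samples vary, which may be technical. The fit was tested on simulated data. Alternatives covered the pseudocount, a floor, scaling, filter, variance model, array weights, the replicate block and leaving out each array.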

Additional observations from a re-analysis of the deposited data

How the results depend on the processing

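No receptor and no listed pathway gene or carboxylesterase crossed the threshold under any of the 16 alternatives. GID1C kept its sign in all 16, and GID1C minus GID1B in the 12 run for it. The filters, the variance model and the replicate block cannot change the GID1C estimate. Median centring and the replicate block cannot change that of GID1C minus GID1B. Without 1 array GID1C ranged from 0.086 to 0.37 and GID1C minus GID1B from 0.10 to 0.21. GID1A, at -0.0023 as reported, was 0.019 with median centring and 0.035 with array weights, and ranged from -0.13 to 0.13 without 1 array (0.13 when either wild type replicate 3 or pif1-2 replicate 2 was left out). GID1B ranged from -0.093 to 0.17, being -0.093 without wild type replicate 3, -0.066 without pif1-2 replicate 1 and -0.020 without pif1-2 replicate 2. GID1C minus GID1A ranged from -0.043 to 0.45 (-0.011 without wild type replicate 3, -0.043 without pif1-2 replicate 2), and GID1B minus GID1A from -0.23 to 0.25 (-0.23 without wild type replicate 3, -0.012 without pif1-2 replicate 1, -0.15 without pif1-2 replicate 2). CXE20 was -0.088 with array weights and ranged from -0.35 (pif1-2 replicate 3 left out) to 0.62 without 1 array. XERICO ranged from -0.034 (pif1-2 replicate 1 left out) to 0.092, at -0.017 when wild type replicate 2 was dropped. The cause was not tested.

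Of all probe sets 2 passed as reported, 1 with median centring, quantile normalization, no filter or no intensity trend, 8 with array weights and 0 to 7 without 1 array (0 after dropping wild type replicate 2, 7 after dropping wild type replicate 1, 1 after dropping any other array). In the fit with replicate number as a block the count was 45. With 1 array per group and number this block cannot change a log2 fold change. Those of GID1A, GID1B and GID1C were therefore again -0.0023, 0.029 and 0.20, with limma adjusted p = 0.999, 0.969 and 0.700. The number was not taken to pair the samples in the fit as reported. Deviations from the group means of same-numbered arrays, correlated across probe sets, had r = 0.25, 0.099 and 0.088, 2 of them under 0.1. Between differently numbered arrays r was lower, from -0.16 to 0.054. A pairing by number is therefore not excluded, and the fit as reported ignores it. No second probe set of a receptor was named, so the alternative of another probe set was not run.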

Other observations

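The replicate number was not taken as a pairing, yet the replicate 3 arrays of both groups were the highest of their group for GID1A and the lowest for GID1B and GID1C. On log2(signal + 16), pif1-2 minus wild type for replicates 1, 2 and 3 was 0.12, -0.019 and -0.11 for GID1A, 0.15, -0.049 and -0.015 for GID1B, and 0.39, 0.20 and 0.0014 for GID1C. Over all 6 arrays the values spanned 0.53, 0.48 and 0.57.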
